A study of Mus musculus with 5 samples.

Results

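The miR-29 family was followed across 5 single-colour miRNA arrays of mouse back skin. Its members were taken by name, as every probe whose name starts with mmu-miR-29a, mmu-miR-29b or mmu-miR-29c followed by a hyphen, a rule that uses no measured value. This gave 7 of the 1900 miRNAs on the array, 3 of them 3p arms (mmu-miR-29a-3p, mmu-miR-29b-3p and mmu-miR-29c-3p) and 4 of them 5p arms. Skin was taken from female mice in the resting (telogen) phase of the hair cycle. Aged mice were 2 years old, and their back skin was hybridised unwounded (aged D0) and 3, 5 or 7 days after a full-thickness punch biopsy (aged D3, aged D5, aged D7). Young mice were 8 weeks old, and only their unwounded skin (young D0) was on these arrays, so that each of the 5 conditions had 1 array. The strain and the number of mice behind each array are not given in the sources used here, and wounds of young mice were not analysed here. The study asked how miRNA levels during wound repair differ with age. With 1 array per condition no difference could be tested against the variation between animals, so no p-values were computed, and a single array per condition is what limits the precision of each ratio.

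miRNAs are short RNAs that pair, mainly through bases 2 to 8 of their 5′ end (the seed), with messenger RNAs and lower their translation and stability. The miR-29 family is best known for targeting the messengers of extracellular matrix proteins, among them type I and type III collagens, elastin and fibrillin, and its levels are known to fall in fibroblasts under TGF-β signalling and in fibrotic organs. Collagen is laid down by fibroblasts as a skin wound fills with granulation tissue. Messenger RNAs were not measured on these arrays, so nothing is said here about the level of any target.

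The mature 3p arms are shown because they share a seed but differ in few other bases, which bears on how far a hybridisation probe can tell them apart. The seed is in capitals, and the sequences are read 5′ to 3′ from the array's target column, where all 7 equal the RefSeq mature sequences (GRCm38.p6 table).
mmu-miR-29a-3p: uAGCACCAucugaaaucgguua
mmu-miR-29b-3p: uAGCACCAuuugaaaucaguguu
mmu-miR-29c-3p: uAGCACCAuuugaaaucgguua
These 3 are the only probes of the array with this seed. Counting from 1 at the 5′ end, miR-29a-3p and miR-29c-3p differ at 1 of 22 bases (C10U), while miR-29c-3p and miR-29b-3p differ at 3 of the 22 positions that both have (G18A, U21G and A22U). The closest sequence outside the family lies at least 8 edits away. How much of one member's signal comes from another member binding the same probe was not tested. GC content was 40.9% for miR-29a-3p, 34.8% for miR-29b-3p and 36.4% for miR-29c-3p.

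The family comes from 4 genes in 2 pairs. Their hairpins are shown in lower case with both mature arms in capitals, since the shared 3p arm of the miR-29b genes cannot tell their loci apart whereas the 5p arms can.
Mir29a: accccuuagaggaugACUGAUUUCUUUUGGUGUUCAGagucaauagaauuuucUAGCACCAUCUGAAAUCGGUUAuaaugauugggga
Mir29b-1: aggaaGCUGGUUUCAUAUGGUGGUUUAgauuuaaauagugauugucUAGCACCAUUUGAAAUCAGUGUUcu
Mir29b-2: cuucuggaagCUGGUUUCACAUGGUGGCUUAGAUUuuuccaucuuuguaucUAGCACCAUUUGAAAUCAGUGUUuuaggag
Mir29c: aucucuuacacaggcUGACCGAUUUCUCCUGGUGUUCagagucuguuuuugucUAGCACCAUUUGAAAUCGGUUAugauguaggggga
In GRCm38.p6 Mir29a (chr6:31062660-31062747) and Mir29b-1 (chr6:31063023-31063093) lie 275 bases apart on the minus strand of chromosome 6. Mir29b-2 (chr1:195037040-195037120) and Mir29c (chr1:195037547-195037634) lie 426 bases apart on the plus strand of chromosome 1. The mature sequence of miR-29b-3p is encoded in both pairs, that of miR-29a-3p by Mir29a and that of miR-29c-3p by Mir29c.

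Each miRNA has 2 spots on an array. The median scanned intensity of the miRNA spots lay between 62.9 and 111 on the 5 arrays, close to that of the 4 empty spots, whose means lay between 52.9 and 96.9. The detection level was set at the 95th percentile of those empty spots (58.3 to 107), and a miRNA was called bright above 2 times that level, which left 210 to 342 bright miRNAs per array. The keratinocyte miRNAs miR-203-3p and miR-205-5p, which mark skin epithelium, were at least 54.4 times the detection level on every array. Other listed epithelial miRNAs could be far dimmer. Of the 7 listed, only miR-141-3p missed the bright level on any array, with 115 against 122 on D5.

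In scanned intensity, with the mean of the spots and then each spot, mmu-miR-29a-3p read 9250 (10871 and 7630) on the young D0 array, 4756 (5644 and 3869) at aged D0, 2879 (3114 and 2645) at D3, 1850 (2135 and 1566) at D5 and 3689 (3085 and 4293) at D7. It was thus brightest in young skin and dimmest in the D5 wound, and its spots on the D0 and D7 arrays of aged skin overlapped. mmu-miR-29b-3p read 5209 (6210 and 4209) in young D0 skin, 541 (599 and 483) at aged D0, 1008 (1079 and 937) at D3, 564 (632 and 496) at D5 and 2392 (2032 and 2753) at D7. Its lowest values were in unwounded aged skin and the D5 wound, whose spots overlapped, and its D7 spots lay above those of every other aged array. mmu-miR-29c-3p read 2677 (3409 and 1945) in young D0 skin, 248 (299 and 196) at aged D0, 231 (235 and 228) at D3, 127 (142 and 112) at D5 and 456 (412 and 499) at D7. Both spots of the young array lay far above all spots of aged skin, and the D5 signal was only 2.08 times the detection level. All 15 readings of the 3p arms were bright.

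**Figure D1:**
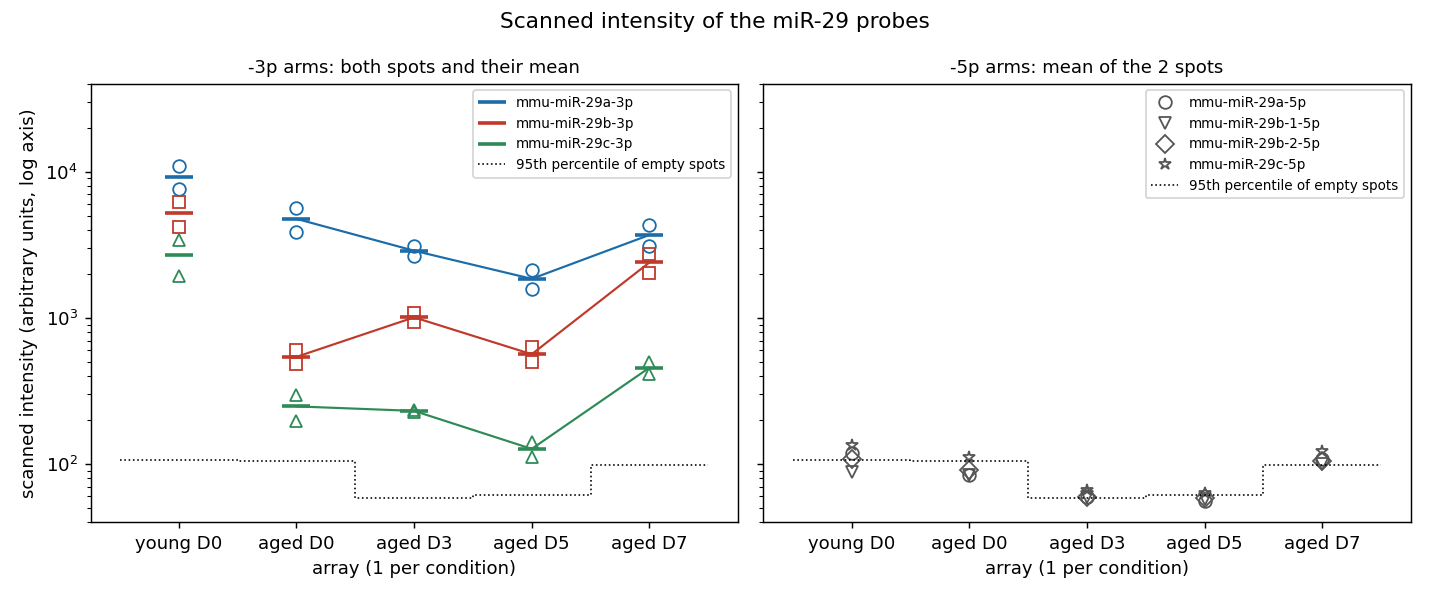
Scanned intensity (log axis) of the miR-29 probes on the 5 arrays, with 1 array per condition; at left both spots (open symbols) and their mean (bars) for the 3p arms, with lines joining the aged arrays, at right the mean of the spots for the 5p arms. The dotted line is the 95th percentile of the empty spots. The 3p arms sit above it on every array, each of the 3p arms is highest in young skin, and the 5p arms sit at the dotted line.

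The scanned intensities were background corrected and quantile normalized over the 5 arrays, which gives all arrays the same distribution, and ratios are given on the linear scale. The SD of the log2 ratio of a single spot, estimated from the repeat spots of miRNAs bright on both arrays, was 0.19 in aged over young and in D5/D0, 0.20 in D3/D0 and 0.35 in D7/D0; it holds no variation between animals. Every ratio was also recomputed in 15 other settings (other normalizations and background corrections, single spots, the authors' processed values, and corrections for GC content and array position).

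In unwounded skin, miR-29b-3p and miR-29c-3p were lower in aged than in young mice, whereas the direction of miR-29a-3p depended on the normalization. The aged over young ratio of miR-29c-3p was 0.283, with 0.261 and 0.306 from its spots. For miR-29b-3p it was 0.324, with 0.315 and 0.333 from the spots. Both gaps were many times the spread between spots, and both ratios stayed past 2-fold in all 15 other settings, between 0.0845 and 0.397 for miR-29c-3p and between 0.0947 and 0.454 for miR-29b-3p. Of the 3 3p members, 2 were at least 2-fold lower and 0 at least 2-fold higher. Among the 339 miRNAs bright on at least 1 of these arrays, 13.6% passed 2-fold downwards and 4.72% upwards. Only 12 of the 339 had a lower ratio than miR-29c-3p, and 17 a lower one than miR-29b-3p. The ratio of miR-29a-3p was 1.18 (1.12 and 1.25 from the spots), and no direction could be read from it, since scaling to the median gave 0.462 and scaling to the 75th percentile 1.71.

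The normalization matters here because most bright miRNAs were dimmer on the aged array, while the median over all miRNA spots was not (97.4 at aged D0 and 94.4 at young D0). Of the 210 miRNAs bright on both arrays 201 were dimmer in aged skin before normalization, with a median ratio of 0.46, against 1.16 after it. In scanned intensity the ratios were 0.514 for miR-29a-3p, 0.104 for miR-29b-3p and 0.0925 for miR-29c-3p. miR-29a-3p thus lay near the median of these bright miRNAs before normalization, while its relatives lay far below it. Over 11 spike calibration controls the mean ratio of scanned intensity was 0.838, and over 5 probes for 5S ribosomal RNA it was 0.997.

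After wounding, the members moved apart. On D3 the ratio to aged D0 of miR-29b-3p was 1.76, with 1.73 and 1.79 from its spots, and it lay above 1 in all 15 other settings, between 1.22 and 2.60. This was 1.82 times the median of the 345 bright miRNAs. miR-29a-3p had a D3/D0 ratio of 0.792 (0.717 and 0.875 from the spots) and miR-29c-3p 0.878 (0.688 and 1.12). On the log2 scale both values lay less than 2 SDs of a single spot from no change, though a mean of 2 spots varies less. The direction changed between settings, with 0.398 to 1.05 for miR-29a-3p and 0.625 to 1.34 for miR-29c-3p. Of the 15 other settings, 13 kept miR-29a-3p below 1 and 11 kept miR-29c-3p below 1. At D3, 0 of the 3 members passed 2-fold in either direction, against 17.7% of the bright miRNAs that passed it upwards and 12.8% downwards.

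On D5, miR-29a-3p and miR-29c-3p were below their unwounded level. miR-29a-3p had a D5/D0 ratio of 0.661, and its spots gave 0.647 and 0.675. miR-29c-3p had 0.558, and its spots gave 0.491 and 0.634. Each lay below 1 in all 15 other settings, with ranges of 0.295 to 0.695 and 0.403 to 0.754. For miR-29b-3p the ratio was 1.18 (1.19 and 1.16), close to the spread between spots, and it fell below 1 in 2 settings. Again 0 of the 3 members passed 2-fold, against 10.5% of 296 bright miRNAs higher and 8.45% lower. From D3 to D5 all 3 members were lower, with ratios of 0.834 for miR-29a-3p, 0.668 for miR-29b-3p and 0.635 for miR-29c-3p, each below 1 in all 14 other settings.

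By D7, miR-29b-3p stood well above its unwounded aged level. The spots of the D7 array put it 2.21-fold and 3.81-fold above aged D0, 2.90-fold in their mean, and it stayed past 2-fold in all 15 other settings, between 2.19 and 5.18. Of the 309 bright miRNAs, 16 had a larger ratio. It was the 1 member of 3 that passed 2-fold, against 12.9% of the bright miRNAs that passed it upwards and 8.09% downwards. miR-29c-3p had a D7/D0 ratio of 1.21, but its spots gave 0.838 and 1.76, so that no direction could be read from it. miR-29a-3p had 0.702, with 0.493 and 1.0 from the spots. From D5 to D7, miR-29b-3p was 2.47-fold and miR-29c-3p 2.18-fold higher, with the lowest values over 14 other settings at 1.85 and 1.71, while the ratio of miR-29a-3p was 1.06 and depended on the setting, from 0.761 with spot 1 only to 2.67 with scaling to the spike calibration controls.

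**Figure D2:**
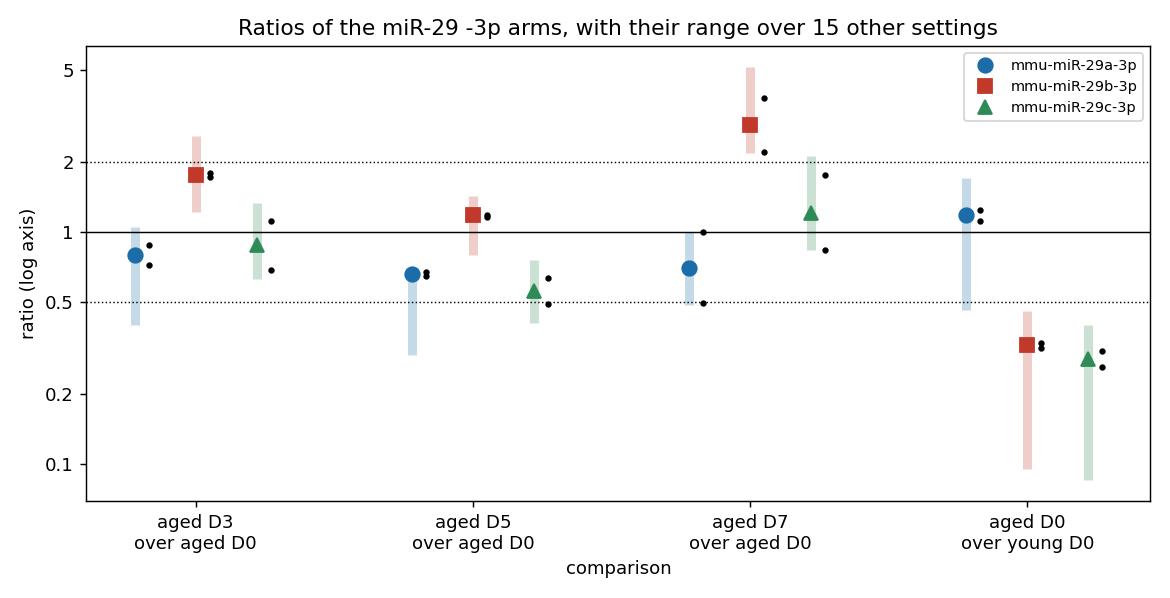
Ratios (log axis) of the miR-29 3p arms in the 4 comparisons after quantile normalization (symbols), with the ratio from each of the 2 spots (black dots) and the range over 15 other settings (pale bars); dotted lines mark 2-fold. miR-29b-3p and miR-29c-3p lie below the lower dotted line in aged over young skin in every setting, and miR-29b-3p lies above the upper one on D7.

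Factors that scale all probes of an array alike cancel when the ratio of one member is divided by that of another. In aged over young skin, the ratio of miR-29b-3p was 0.274 times that of miR-29a-3p (0.281 and 0.267 from the paired spots), and that of miR-29c-3p was 0.239 times it (0.233 and 0.245). Neither rose above 0.358 in any of the 15 other settings. miR-29b-3p and miR-29c-3p differed from each other by 1.15-fold only. Relative to miR-29a-3p, these 2 members were thus lower in aged skin by a like factor. Whether miR-29a-3p was itself lower depended on the setting, with ratios between 0.462 and 1.71.

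In the wounds it was miR-29b-3p that stood apart. Relative to miR-29a-3p it gained 2.22-fold by D3, 1.78-fold by D5 and 4.13-fold by D7, and the lowest values over the other settings were 1.87, 1.34 and 3.37. Relative to miR-29c-3p it gained 2.01-fold, 2.11-fold and 2.39-fold on the same days, and at least 1.60-fold in every other setting. miR-29c-3p and miR-29a-3p changed alike within the settings on D3 (1.11, range 0.890 to 1.57) and D5 (0.844, range 0.579 to 1.42). On D7 miR-29c-3p had gained 1.73-fold on miR-29a-3p, with both spot pairs near that value (1.70 and 1.76) although each member's own spots had disagreed. The spots of the 7 probes lie side by side, in rows 3 to 9 of column 20 and in rows 109 to 115 of column 4. An uneven array would therefore act on the members together. On the D7 array the second spot of each 3p arm was the brighter, and on every other array the first. Whether the D7 array or the aged D0 array was uneven there was not tested. With each spot set against the 25 nearest spots of bright miRNAs, the D7/D0 ratio of miR-29b-3p was 3.47. That of miR-29a-3p was 0.866 and that of miR-29c-3p 1.45.

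**Figure D3:**
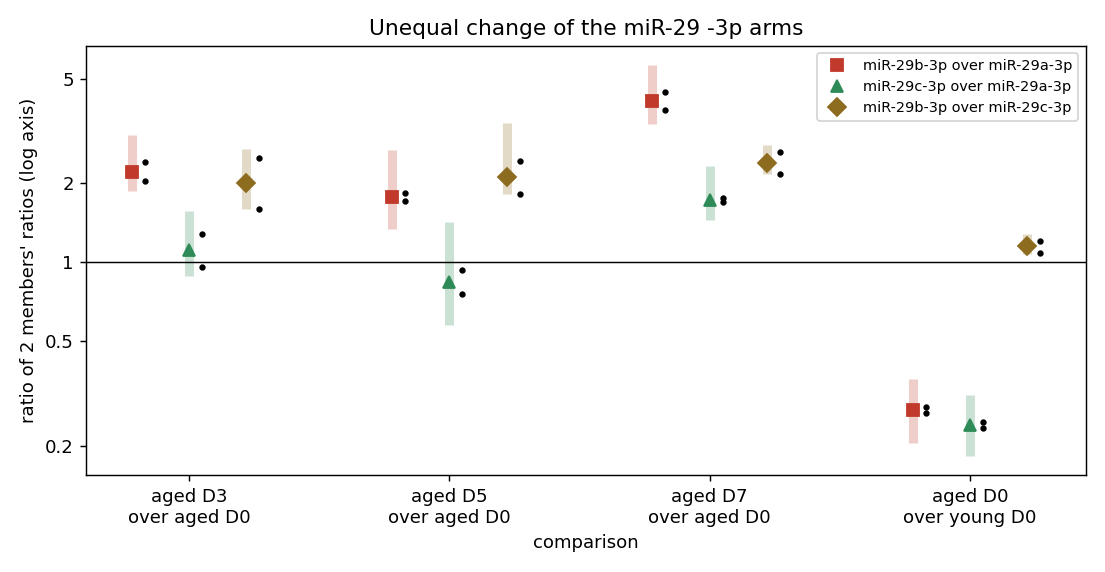
Ratio of one member divided by that of another (log axis) in the 4 comparisons, after quantile normalization (symbols), from each pair of neighbouring spots (black dots) and over 15 other settings (pale bars). A value of 1 means equal change. miR-29b-3p over miR-29a-3p lies above 1 on all 3 wound days and, with miR-29c-3p over miR-29a-3p, near 0.25 in aged over young skin.

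The family is GC poor. Bright miRNAs nearest in GC content to miR-29b-3p had other median ratios than all bright miRNAs (0.713 against 1.03 with age, and 1.33 against 1.02 on D7). Those nearest to miR-29a-3p, at 40.9% GC, had medians of 0.932 with age and 1.08 on D7, closer to all bright miRNAs. In aged over young skin the 41 bright miRNAs nearest in GC content to miR-29b-3p (27.3% to 36.4%) had a median ratio of 0.713, and relative to these its ratio was 0.454; 6 of them had a lower ratio. For miR-29c-3p the corresponding value was 0.397, with 4 of 47 lower. On D7 the 39 nearest of miR-29b-3p had a median of 1.33, which leaves 2.19 for miR-29b-3p, and 5 of them were higher. On D3 the corresponding value was 1.94, and on D5 0.856. Set against miRNAs of like GC content, miR-29b-3p on D7 and both miR-29b-3p and miR-29c-3p with age were thus nearer to 1 and still past 2-fold. The part of GC content in these ratios was not tested further.

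**Figure D4:**
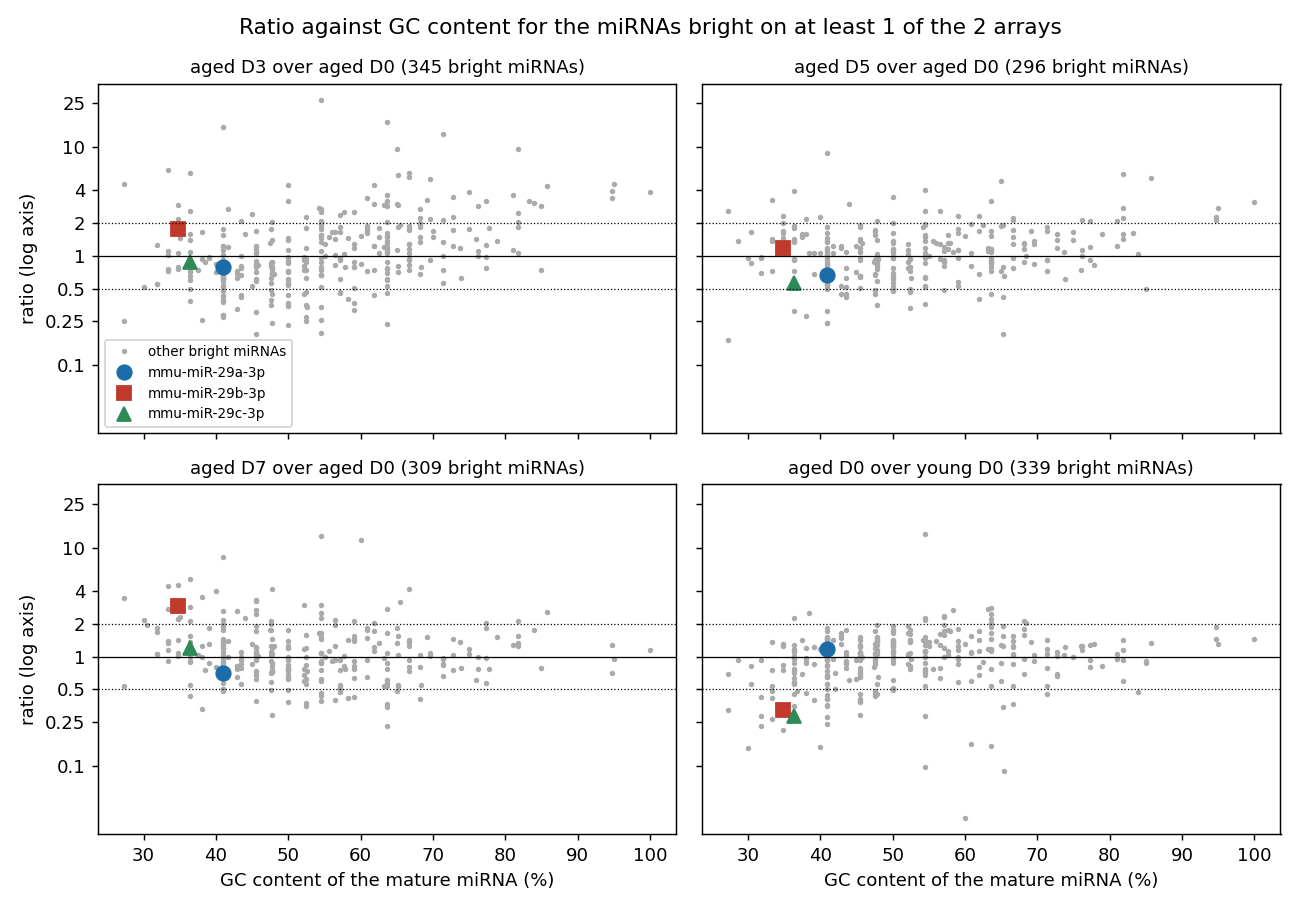
Ratio (log axis) against the GC content of the mature miRNA for miRNAs bright on at least 1 of the 2 arrays of each comparison (grey points), with the miR-29 3p arms as coloured symbols and dotted lines at 2-fold. In aged over young skin miR-29b-3p and miR-29c-3p lie among the lowest of the GC-poor miRNAs, and on D7 miR-29b-3p lies among the highest.

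The 5p arms, which are usually discarded when the mature miRNA is loaded into its effector complex, gave no usable signal. Of their 20 readings 0 were bright and 13 exceeded the detection level, all between 0.796 and 1.26 times that level. Of all 1900 miRNAs, 691 exceeded it at young D0, 589 at aged D0, 1768 at D3, 1071 at D5 and 1559 at D7. This level, taken from 4 empty spots, thus set the arrays apart. The highest 5p reading was miR-29c-5p in young skin with a scanned intensity of 135. No ratio is given for the 5p arms, and the share of miR-29b-3p made from each of its genes could not be read from miR-29b-1-5p (59.6 at D3 and 88.9 in young skin) or miR-29b-2-5p (59.7 and 109).

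Other miRNAs with a known part in fibrosis were followed as a list. Of 18 listed miRNAs, 16 were bright in the D7 comparison, where 3 were at least 2-fold higher, 1 was at least 2-fold lower, and the median ratio was 1.13, against 12.9% higher, 8.09% lower and a median of 1.02 over all bright miRNAs. The 3 were miR-21a-5p, which promotes fibrosis, with 5.17, and both arms of the fibroblast miRNA miR-199a, with 2.94 for miR-199a-5p and 2.17 for miR-199a-3p. On D3 1 of 16 was higher (miR-21a-5p, 5.70) and 4 were lower, with a median of 0.678, against 17.7% higher, 12.8% lower and a median of 0.967 over all bright miRNAs. On D5 1 of 15 was higher and 1 lower, against 10.5% and 8.45%, with a median of 0.765 against 1.07. In aged over young skin 0 of 17 were higher and 1 was lower (miR-101a-3p, 0.483), and the median was 1, against 4.72%, 13.6% and 1.03 over all bright miRNAs. The next lowest there was miR-26b-5p with 0.535, while its relative miR-26a-5p had 1.03. At aged D0, miR-101a-3p and miR-101b-3p were not bright (scanned intensity 164 and 127, bright level 211). They entered the aged over young comparison only through the young array, so the filter itself favoured a lower ratio for them.

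Markers of other cells moved in the same comparisons. In bulk skin, fewer cells of a type and less RNA per cell cannot be told apart. Of the 5 leukocyte miRNAs (miR-223-3p, both arms of miR-142a, miR-155-5p and miR-150-5p), 3 were at least 2-fold lower in aged than in young skin. Their median ratio was 0.268, and 13.6% of all bright miRNAs were lower. All but miR-150-5p, 4 in number, were not bright at aged D0 (scanned intensity 87.6 to 197, bright level 211). Where counted, these 4 entered a comparison only through the other array, so the filter itself favoured the direction of their ratios. The summed normalized intensity of all 5 was 2652 in young D0 skin and 1088 at aged D0, and in the wounds it was 5328 (D3), 3688 (D5) and 3707 (D7). In scanned intensity the sums were 5829 in young D0 skin, 901 at aged D0, 4071 at D3, 2389 at D5 and 4172 at D7, so that the order of the D3 and D7 wounds depended on the scaling. In the wounds 3 of the 5 were at least 2-fold higher on D3, 3 of the 4 that were bright on D5, and 4 of 5 on D7. Over all bright miRNAs 17.7%, 10.5% and 12.9% were higher on these days. Of the 4 fibroblast miRNAs on the array (both arms of miR-199a, miR-199b-5p and miR-214-3p) 3 were at least 2-fold higher on D7. Their median ratio was 2.53, and 12.9% of all bright miRNAs were higher. Their normalized sum was 8344 in young D0 skin, 8832 at aged D0, 6505 in D3, 12408 in D5 and 18605 in D7 wounds. The scanned sums were 19835 in young D0 skin, 7905 at aged D0, 4997 at D3, 7403 at D5 and 19392 at D7. The order of young and aged D0 skin, and of aged D0 skin and the D5 wound, thus depended on the scaling. In aged over young skin 1 of the 4 was at least 2-fold lower (miR-199b-5p, 0.452), against 13.6% of all bright miRNAs. The ratios of the other members were 1.03 for miR-199a-5p, 1.04 for miR-199a-3p and 1.38 for miR-214-3p, and the median of the 4 was 1.03. The part of either cell type in the miR-29 ratios was not tested.

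The miRNAs whose profile over the 5 arrays was most like that of each member were found by the root mean square difference of log2 values centred on their mean, among the 196 other miRNAs bright on all arrays. For miR-29a-3p they were miR-185-5p (0.07), miR-26a-5p (0.11) and miR-22-5p (0.15), with a median over all of 0.48. For miR-29b-3p they were miR-668-3p (0.26), miR-6238 (0.26) and miR-15a-5p (0.30), with a median of 0.87. For miR-29c-3p they were miR-98-5p (0.32), miR-6965-3p (0.42) and miR-100-5p (0.43), with a median of 1.0. The members were not among these 196 and were compared separately, and none was among the 3 closest of another. miR-29b-3p lay at 0.60 from miR-29c-3p, with 19 other miRNAs closer to it, and at 0.74 from miR-29a-3p, with 56 closer. miR-29c-3p had 13 of the 196 miRNAs closer to it than miR-29b-3p was, and miR-29a-3p had 158.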

How the data were processed

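The authors deposited, for each of the 5 single-colour arrays made by a service provider, the scanned median intensity of every spot, linear and not normalized, with empty background columns, and a table of processed intensity per miRNA, whose normalization is not given in the sources used here. This table is linear, and its medians were 8 (young D0), 5.43 (aged D0), 7.56 (D3), 7.01 (D5) and 8.09 (D7). Its centring is unknown. For ratios, its values below 1 were raised to 1 here.

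The spot intensities were background corrected with limma's normexp (offset 50, fitted on the intensities alone), control spots were left out, and log2 values were quantile normalized and averaged over the 2 spots of a miRNA. The family was chosen for description, and the lists and comparisons set, with earlier results of these data known; the rule that picks its probes uses names only. Named miRNAs were all members, the fixed lists (fibrosis, epithelium, leukocytes, skeletal muscle, erythroid cells, endothelium, fibroblasts) and the 3 nearest profiles of each 3p arm. The steps were tested on simulated data, a copy of the aged D0 array with equal numbers of miRNAs raised and lowered. A shift of most bright miRNAs in one direction, as between the aged and young D0 arrays, was not simulated. Groups came from the labels. Alternatives are given in the closing section. Tools were R 4.3.3, limma 3.58.1, Python 3.11.15, pandas 2.3.3, numpy 2.4.6 and matplotlib 3.10.9.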

Additional observations from a re-analysis of the deposited data

How the results depend on the processing

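No paired analysis was possible because there was only 1 array per condition. Of 180 recomputed ratios of the 3p arms, 109 moved by less than the SD of a single spot, 71 moved by more, and 0 of those past 2-fold turned direction. The count of 3p arms past 2-fold with age was 2 in every setting but scaling to the median, where it was 3 with miR-29a-3p at 0.462. On D3 it rose from 0 to 1 with scaling to the median (miR-29b-3p, 2.60), cyclic loess (miR-29b-3p, 2.41), the authors' processed values (miR-29b-3p, 2.54), a 1.5-fold threshold, and scaling to the spike calibration controls, where it was miR-29a-3p with 0.398. On D5 it rose from 0 to 1 with no normalization between arrays (miR-29a-3p, 0.393), scaling to the 75th percentile (0.431), scaling to the 5S probes (0.379), spot 1 only (miR-29c-3p, 0.491), the authors' processed values (0.403) and nearest GC content (0.411), and to 2 with the spike calibration controls and with a 1.5-fold threshold. On D7 it rose from 1 to 2 with scaling to the 75th percentile (miR-29a-3p, 0.483), the 5S probes (miR-29c-3p, 2.14) and spot 1 only (miR-29a-3p, 0.493), and fell to 0 with a 3-fold threshold. A threshold changes a count by construction; the cause of the other changes was not tested. The setting by nearest spots was chosen after the data were seen and changed no count. Low signal over background limits miR-29c-3p most, at 2.08 times the detection level on D5 and 2.35 at aged D0.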

Other observations

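Other cell type markers were measured on the same arrays. All 4 skeletal muscle miRNAs (miR-1a-3p, miR-133a-3p, miR-133b-3p and miR-206-3p) were at least 2-fold lower on D3 than at aged D0, with a median ratio of 0.294, and on D5 and D7, with 1 and 2 of them at least 2-fold lower, the medians were 0.512 and 0.516. In aged over young skin their median was 0.966. Of the 7 epithelial miRNAs, 5 were at least 2-fold lower and 1 higher on D3 (miR-200c-3p, 2.10), 3 were lower and 0 higher on D5, and 0 passed 2-fold on D7, with medians of 0.428, 0.536 and 0.571. With age 1 was higher (miR-205-5p, 2.27) and 0 lower, with a median of 1.45. Over all bright miRNAs 17.7%, 10.5% and 12.9% were higher and 12.8%, 8.45% and 8.09% lower on D3, D5 and D7, and 4.72% were higher and 13.6% lower with age. The erythroid miRNAs miR-451a and miR-486a-5p had aged over young ratios of 2.28 and 2.00 and D7/D0 ratios of 0.437 and 0.233. At D7, miR-486a-5p was not bright (scanned intensity 182, bright level 198). It entered that comparison only through the aged D0 array, so the filter itself favoured a lower ratio for it. Its ratios to aged D0 were 0.236 at D3 and 0.45 at D5, against 0.601 and 0.927 for miR-451a. Of the other listed erythroid miRNAs, miR-144-3p was bright on no array and miR-486b-5p was not on the array. The endothelial miR-126a-3p had ratios of 0.714, 1.17 and 1.02 on the 3 wound days and 1.06 with age.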
